A study of Mus musculus with 2 samples.

Results

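The genes described here are 10 chemokine genes of cultured mouse muscle cells, Ccl2, Ccl5, Ccl7, Ccl20, Cxcl1, Cxcl5, Cxcl9, Cxcl10, Cxcl12 and Cx3cl1. The list was made by symbol, with earlier results of these data known. The genes were read through probe sets that the platform's annotation assigns to 1 gene. Each had exactly 1 such probe set, and 0 further probe sets shared with another gene, so 10 of the 19938 named genes on the array were followed. The cells were C2C12, an established mouse myoblast line that fuses into myotubes once serum is reduced. Cultures were grown in 10% fetal bovine serum, held in 2% horse serum for 7 days, and then exposed to virus at a multiplicity of infection of 30, with RNA taken 48 h later. The Ad-caERα culture received an adenovirus carrying a constitutively active estrogen receptor α, a form that works without hormone, and the Ad-DsRed culture an adenovirus carrying the red fluorescent protein DsRed. Both cultures were therefore infected with adenovirus, and an uninfected culture was not analysed here. Each group is 1 culture of 1 cell line on 1 array, so no value below has a replicate error, and no test between the vectors could be made.

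Chemokines are small secreted proteins that guide migrating leukocytes through G protein-coupled receptors. They are classed by the spacing of the first cysteines of the mature protein into CC, CXC and CX3C chemokines. Most inflammatory members are switched on by NF-κB, often together with interferon-activated factors, whereas Cxcl12 is made constitutively by many stromal cells. In injured muscle, chemokines such as Ccl2 draw in the monocytes that clear debris and aid regeneration, and cultured muscle cells secrete several of them when exposed to inflammatory cytokines.

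Promoter sequences show which letters stand close to the start of these genes. The RefSeq table of GRCm38.p6 had an entry for 6 of the 10 genes (Ccl20, Cxcl1, Cxcl9, Cxcl10, Cxcl12 and Cx3cl1). Entries for Ccl2, Ccl5, Ccl7 and Cxcl5 were not used here. The 250 bases before the start are printed, 5′ to 3′ on the strand of the gene, for the 4 genes with a match to the NF-κB or interferon motif. Cxcl10 lies at chr5:92348890-92349139 on the minus strand, Cxcl1 at chr5:90890995-90891244 on the plus strand, Ccl20 at chr1:83116516-83116765 on the plus strand and Cxcl9 at chr5:92328080-92328329 on the minus strand. Capitals mark matches to the κB consensus of NF-κB and to the core of the interferon-stimulated response element, GAAANNGAA.
Cxcl10: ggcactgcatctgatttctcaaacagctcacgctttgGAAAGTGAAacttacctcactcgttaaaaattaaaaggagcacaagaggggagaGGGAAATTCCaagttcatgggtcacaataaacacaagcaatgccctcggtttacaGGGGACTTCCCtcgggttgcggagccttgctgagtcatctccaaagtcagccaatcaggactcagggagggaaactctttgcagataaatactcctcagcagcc
Cxcl1: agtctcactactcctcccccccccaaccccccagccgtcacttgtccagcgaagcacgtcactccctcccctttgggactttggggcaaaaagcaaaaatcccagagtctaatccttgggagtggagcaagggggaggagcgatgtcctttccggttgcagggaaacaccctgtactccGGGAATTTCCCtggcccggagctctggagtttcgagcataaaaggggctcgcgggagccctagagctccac
Ccl20: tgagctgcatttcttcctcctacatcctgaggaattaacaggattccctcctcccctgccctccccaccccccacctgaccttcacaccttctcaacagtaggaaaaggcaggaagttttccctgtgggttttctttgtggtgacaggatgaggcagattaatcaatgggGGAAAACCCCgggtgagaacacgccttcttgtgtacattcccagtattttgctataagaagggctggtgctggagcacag
Cxcl9: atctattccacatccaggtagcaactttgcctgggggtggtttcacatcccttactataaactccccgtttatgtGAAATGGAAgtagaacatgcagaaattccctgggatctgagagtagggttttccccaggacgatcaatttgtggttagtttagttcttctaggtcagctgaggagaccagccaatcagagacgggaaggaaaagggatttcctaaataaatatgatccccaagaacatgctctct

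The κB consensus, searched on both strands, was matched in 3 of the 6 promoters (Ccl20, Cxcl1 and Cxcl10), and in 7.25% of the 32851 promoters of this length in the table. In Cxcl10 a stretch 159 to 150 bases before the start read GGGAAATTCC, and overlapping matches lay 104 to 94 bases before it. In Cxcl1 the matches on the plus and minus strands overlapped, and the plus-strand match read GGGAATTTCC, 71 to 62 bases before the start. The Ccl20 match was on the minus strand, 80 to 71 bases before the start. The interferon motif was present in Cxcl10, as GAAAGTGAA 213 to 205 bases before the start, and in Cxcl9, as GAAATGGAA 175 to 167 bases before it. That motif occurred in 7.13% of all promoters.

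Among motifs tied to estrogen receptors, the half-site AGGTCA or its reverse complement was found in Ccl20 and Cxcl9, and in 14% of all promoters. The full palindromic estrogen response element, GGTCA and its reverse complement 3 bases apart, had 0 matches in the 6 promoters and was present in 0.0639% of all promoters. An AP-1 site, TGANTCA, was found in Cxcl10 (6.75% of all promoters), while the STAT motif TTCNNNGAA (7.02%) and the C/EBP motif TTGCNNAA (9.56%) had 0 matches. The promoters of Cxcl12 and Cx3cl1 held none of the 7 motifs searched. Of the 23 other chemokine ligand genes with an entry, 10 held the half-site and 4 a κB match (Ccl1, Ccl9, Cxcl2 and Cxcl3). Cxcl2 and Cxcl3 carried the same plus-strand letters as Cxcl1, GGGAATTTCC, yet stood below the detection floor on both arrays. These matches describe letters in a short window and say nothing on whether a factor was bound.

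Signals are log2 values per probe set. Signals of different probe sets are not amounts of transcript, so genes are set against a detection floor and not against each other. The floor, 5.11, came from 1210 probe sets for olfactory or vomeronasal receptors, taken as silent in muscle cells, as the 95th percentile of the brighter of each pair of signals. A gene is called measured if its brighter signal passed the floor, which held for 13554 genes apart from those receptors. Differences are log2 signals in Ad-caERα minus those in Ad-DsRed, and their median over measured genes was 0.0017. Esr1, the gene of estrogen receptor α, was 2.08-fold higher in Ad-caERα (8.44) than in Ad-DsRed (7.38). How far this probe set reads the introduced transcript is unknown.

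Ccl2, which encodes a monocyte attractant, was 6.11-fold lower in the culture with the active receptor, and was the only listed gene lower by 2-fold with both signals above the floor. All 10 genes were above the floor in Ad-DsRed, and 6 of them in Ad-caERα. As deposited, all 10 differences were below 0, as were 48.8% of the measured genes. At 2-fold or more as deposited, 3 of the 10 were lower (Ccl2, Cxcl5 and Cxcl10), against 0.0959% of measured genes, and 0 were higher, against 0.59%. In either direction 0.686% of measured genes passed that rule. At 1.5-fold 4 of the 10 were lower, against 0.885%. As the genes were listed with earlier results of these data known, these counts describe the list and do not test it. Cxcl5 and Cxcl10 were below the floor in Ad-caERα, so with such signals raised to the floor 1 gene, Ccl2, was past 2-fold.

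**Figure D1:**
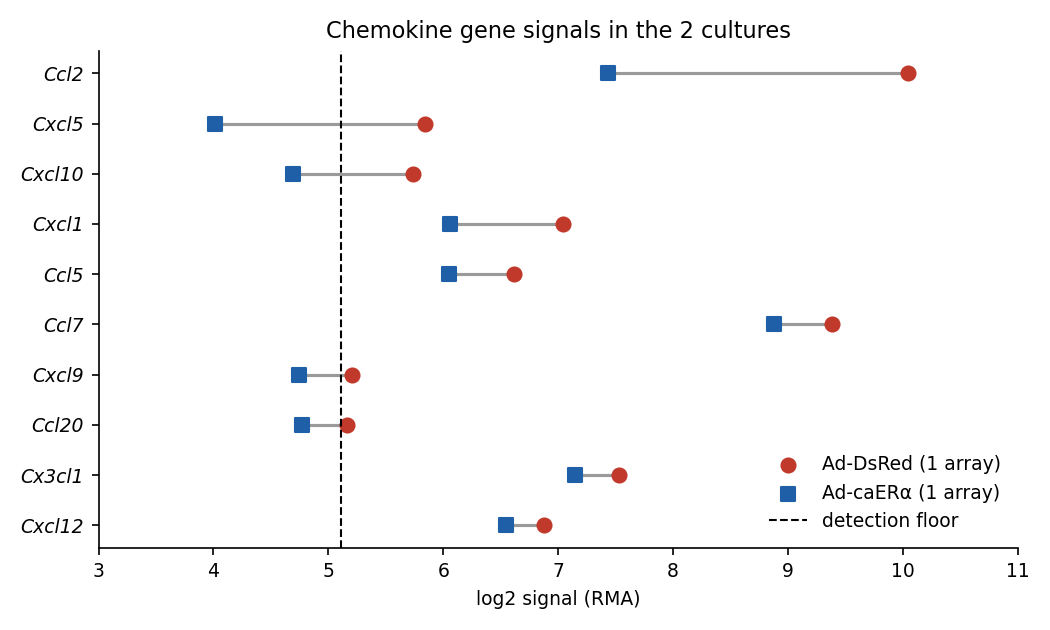
Log2 signal of each chemokine gene in the Ad-DsRed culture (circles) and the Ad-caERα culture (squares), 1 array each, ordered by difference; the dashed line is the detection floor of 5.11. Every square lies left of its circle, and the squares of Cxcl5, Cxcl10, Cxcl9 and Ccl20 lie below the floor.

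The list's median difference was -0.53. As deposited, 9 of the 10 genes, Cxcl12 being the exception, were at or below -0.36, the 5th percentile of all measured genes. Ccl20 and Cxcl9 passed the floor through Ad-DsRed alone, and with signals raised to the floor, a count added after seeing the data, 7 of the 10 were at or below the 5th percentile of -0.34. The median of -0.53 covers all 10 listed genes, of which 6 were above the floor on both arrays. It depends on a list chosen with earlier results of these data known. The 10 other measured chemokine ligands had a median of -0.087. Ccl2 stood lowest, Cxcl5, Cxcl10 and Cxcl1 followed near or past 2-fold, and the 6 others had differences between -0.33 and -0.56. Because RNA came from whole cultures, fewer cells making a chemokine and less chemokine RNA per cell cannot be told apart.

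The CC chemokines that attract monocytes differed most in size among themselves. Ccl2, the main monocyte chemoattractant and a ligand of Ccr2, had a log2 signal of 10.04 in Ad-DsRed and 7.43 in Ad-caERα. Its difference of -2.61, or 6.11-fold lower, ranked 1st from the bottom of the 13554 measured genes. Both signals were well clear of the floor, by 4.94 in Ad-DsRed and by 2.32 in Ad-caERα, so the fold is not limited by detection. Among 2763 measured genes whose mean signal lay within 0.5 of that of Ccl2 (genes of like signal), the differences had an SD of 0.24, and 0 were as low.

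Ccl7, another Ccr2 ligand that attracts monocytes, is the next chemokine gene along chromosome 11. Its signal was 9.38 in Ad-DsRed and 8.88 in Ad-caERα, a difference of -0.51 (1.42-fold lower). Both signals were above the floor, and 23 of 2619 measured genes of like signal were at or below that difference. The neighbouring genes thus went the same way by 6.11-fold and 1.42-fold.

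Ccl5, which attracts T cells and monocytes, had signals of 6.62 (Ad-DsRed) and 6.05 (Ad-caERα). Both were above the floor, and the difference was -0.56 (1.48-fold lower). For genes of like signal the SD was 0.32, and 35 of 1848 were as low or lower.

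Ccl20, the ligand of Ccr6 that attracts dendritic cells and Th17 cells, was at the edge of detection. It stood at 5.16 in Ad-DsRed, 0.056 above the floor, and at 4.77 in Ad-caERα, below it. The fold could only be bounded, at least 1.04-fold lower. The difference was -0.39 as deposited and -0.056 down to the floor. The 1308 measured genes of like low signal had a median difference of -0.12 and an SD of 0.27.

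**Figure D2:**
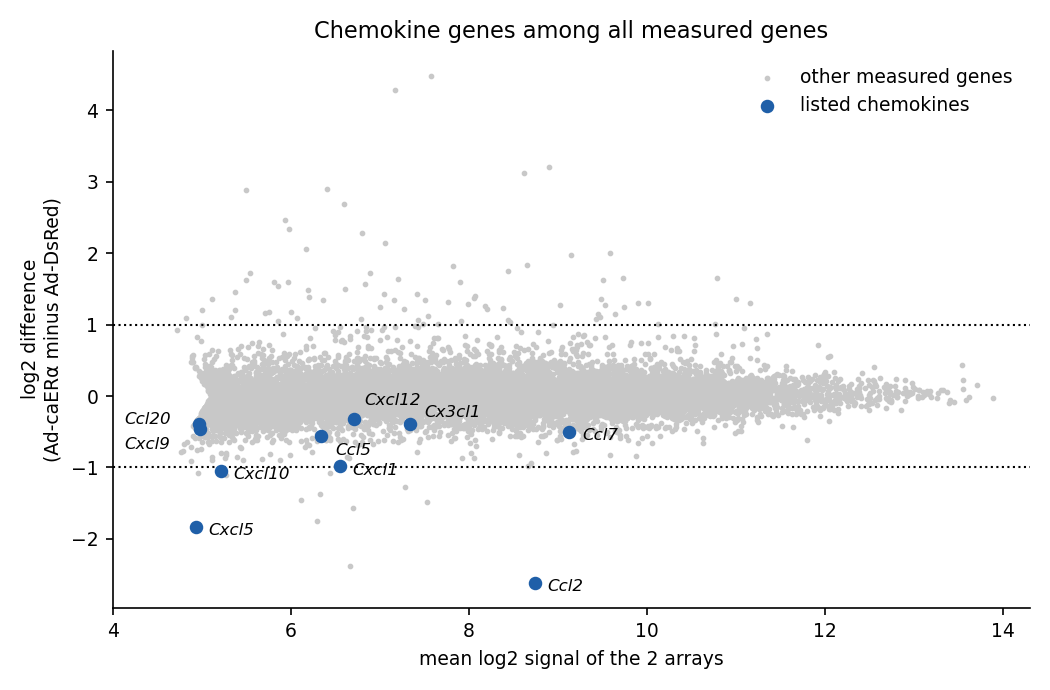
Log2 difference (Ad-caERα minus Ad-DsRed) against the mean log2 signal of both arrays, with 1 point per measured gene; the listed chemokine genes are labelled, and the dotted lines mark 2-fold. Ccl2 is the lowest point of the plot at -2.61, while Ccl7, at a like mean signal, lies at -0.51.

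The neutrophil-attracting CXC chemokines, which act through Cxcr2, had 1 measured and 1 bounded fold. Cxcl5 had a signal of 5.84 in Ad-DsRed and 4.01 in Ad-caERα, a difference of -1.83 as deposited. Relative to the floor the Ad-caERα signal was -1.09, so the fold can only be given as at least 1.67, and the difference down to the floor was -0.74.

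Cxcl1 was above the floor on both arrays, at 7.04 with Ad-DsRed and 6.05 with Ad-caERα. Its difference of -0.99 (1.98-fold lower) ranked 14th from the bottom, just short of 2-fold. Of 1756 measured genes of like signal, 6 were as low or lower, with an SD of 0.31. The fold of Cxcl1 is measured, whereas that of Cxcl5 is a bound.

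The interferon-inducible CXC chemokines attract activated T cells and NK cells through Cxcr3, and both signals were weak. Cxcl10 had signals of 5.73 (Ad-DsRed) and 4.69 (Ad-caERα). Its difference as deposited was -1.04. Relative to the floor the Ad-caERα signal was -0.42, which gives at least 1.54-fold lower, or -0.63 down to the floor. After lowess correction the difference was -0.97, and after a second quantile normalization -0.99, both short of 2-fold. As deposited, Cxcl10 lies just inside the 2-fold rule and Cxcl1 just outside it.

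Cxcl9, the gene next to Cxcl10 on chromosome 5, was at 5.20 in Ad-DsRed, 0.096 above the floor, and at 4.75 in Ad-caERα. It was at least 1.07-fold lower, with a difference of -0.45 as deposited and -0.096 down to the floor. Cxcl11, the remaining Cxcr3 ligand, was below the floor on both arrays, at 4.19 and 4.10.

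Cxcl12 and Cx3cl1 had the smallest differences of the genes above the floor on both arrays. Cxcl12, the ligand of Cxcr4 that guides progenitor cells, was at 6.87 with Ad-DsRed and 6.55 with Ad-caERα, a difference of -0.33 (1.25-fold lower). That is close to the SD of 0.32 among 1776 measured genes of like signal, of which 134 were as low or lower.

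Cx3cl1, or fractalkine, is made as a membrane-bound protein and shed to attract cells that carry Cx3cr1. Its signal was 7.53 in Ad-DsRed and 7.15 in Ad-caERα, a difference of -0.38 (1.31-fold lower). The SD was 0.30 among 1954 measured genes of like signal, and 72 were as low or lower.

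By a rule of nearness over the 2 arrays, the measured genes with a difference closest to that of Ccl2 were Ifit1 (-2.38), Cxcl5 itself and Saa3 (-1.76). Closest to Cxcl5 were Saa3, Ifit3 (-1.57) and Mmp3 (-1.49). For Cxcl10 they were Mmp12 (-1.07), Acnat1 (-1.07) and Cxcl1. The Cxcl5, Cxcl10 and Acnat1 differences used here are those deposited, each with an Ad-caERα signal below the floor. With 1 difference per gene, this orders genes by size alone.

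Of 31 other ligand genes, 26 had a single-gene probe set and 10 were measured, 8 of them above the floor on both arrays. Of the 10, 8 were below 0 (48.8% of all measured genes were) and 2 above it. In either direction 0 passed 2-fold (0.686% of all measured genes). Their median difference was -0.087, and -0.035 where dimmer values were set to the floor. Ccl9 and Ccl26 were measured through Ad-DsRed alone. The remaining 16 were below the floor on both arrays, among them Ccl3, Ccl12, Cxcl2 and Cxcl16.

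Ccl11, the eosinophil attractant eotaxin, had the lowest difference of these, at 8.43 with Ad-DsRed and 7.73 with Ad-caERα (-0.70, 1.63-fold lower). Cxcl17 followed at 6.04 and 5.50 (-0.54). Ccl8, a monocyte chemoattractant, was the highest and went the other way, at 6.35 with Ad-DsRed and 6.85 with Ad-caERα (0.49, 1.41-fold higher). Cxcl13, which attracts B cells, was at 9.86 and 9.60 (-0.27). Ccl4, Ccl17, Ccl19 and Ccl25 differed by 0.020, -0.0060, -0.059 and -0.011.

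**Figure D3:**
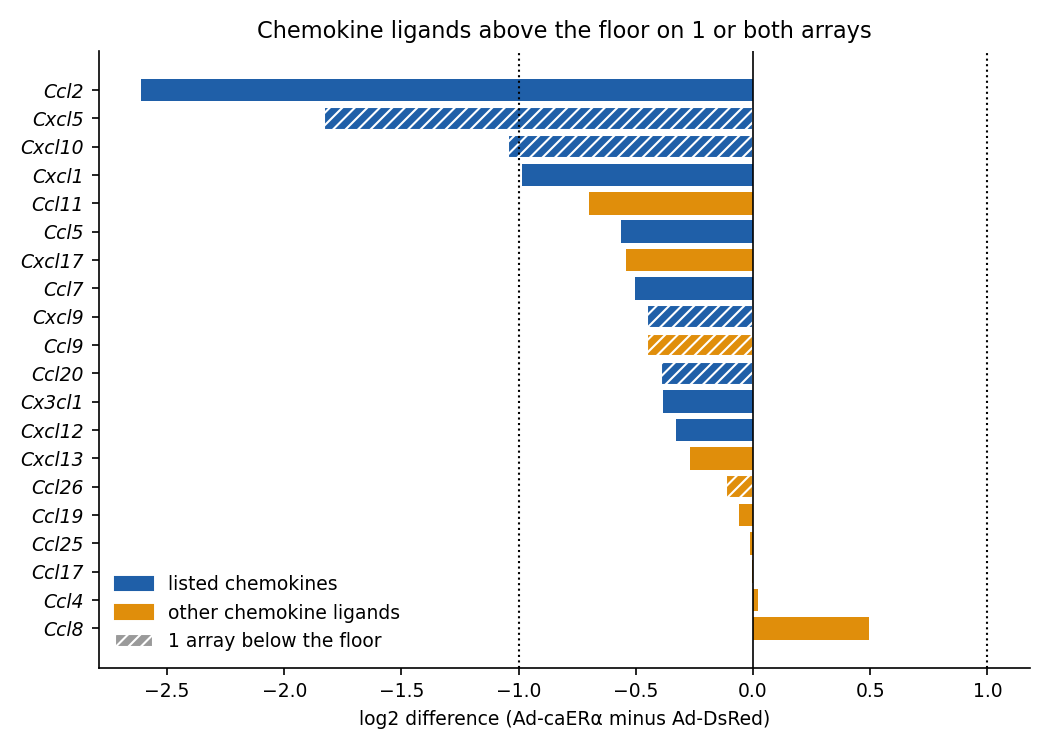
Log2 difference of the 20 chemokine ligand genes above the floor on 1 or both arrays, with listed genes in blue and the other ligands in orange; hatched bars had 1 array below the floor, and the dotted lines mark 2-fold. The bars run from -2.61 for Ccl2 to 0.49 for Ccl8.

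Many chemokine genes stand side by side, and neighbours did not share 1 difference. In the chromosome 11 group that runs in the order Ccl2, Ccl7, Ccl11, Ccl12, Ccl8 and Ccl1, the differences of the 4 measured genes were -2.61, -0.51, -0.70 and 0.49. In the chromosome 11 group from Ccl5 to Ccl4, Ccl5 (-0.56) and Ccl9 (-0.45) were lower and Ccl4 was at 0.020. Ccl9 passed the floor in Ad-DsRed alone, so its fold is a bound, at least 1.07-fold lower. Ccl4 was close to the floor, at 5.18 with Ad-DsRed and 5.20 with Ad-caERα. In the 7-gene chromosome 5 group from Cxcl5 to Cxcl2, the genes above the floor on either array were Cxcl5 and Cxcl1. The 5 others, Ppbp, Pf4, Cxcl3, Cxcl15 and Cxcl2, were below it on both. Cx3cl1 lies between Ccl22, which was below the floor on both arrays, and Ccl17 (-0.0060) on chromosome 8.

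**Figure D4:**
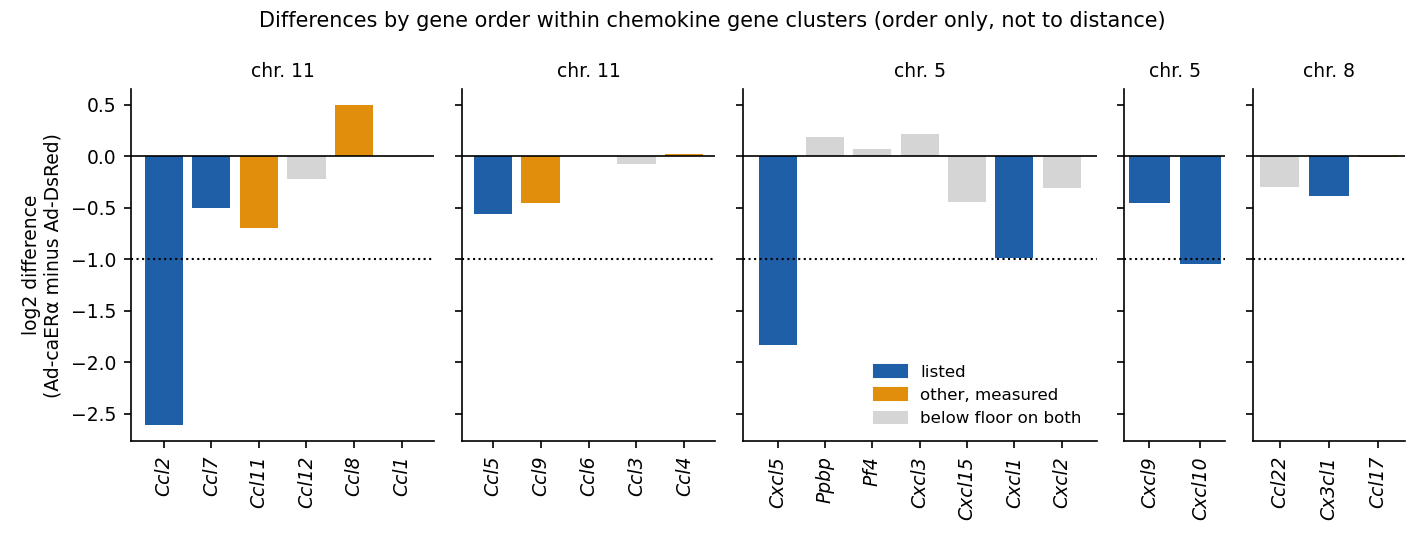
Log2 difference of chemokine genes in 5 chromosomal groups, drawn in gene order and not to distance; blue bars are listed genes, orange bars other measured ligands, and grey bars genes below the floor on both arrays. In the first group the bars go from -2.61 for Ccl2 to 0.49 for Ccl8.

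Receptors for most of these ligands were not above the floor. Of 23 receptor genes, 22 had a single-gene probe set and 7 were measured, 5 of them on both arrays. Of the 7, 6 were below 0 (48.8% of all measured genes were), and the median was -0.17. In either direction 0 passed 2-fold (0.686% of all measured genes). Ccr1, Ccr2, Ccr3 and Ccr6, which bind the CC members, and Cxcr2 and Cxcr3, which bind the CXC members, were below the floor on both arrays.

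The receptors of Cxcl12 and Cx3cl1 were detected. Cxcr4 was at 8.86 with Ad-DsRed and 9.07 with Ad-caERα (0.21), the highest difference among the measured receptors. Ackr3, the scavenging Cxcl12 receptor, had the lowest, at 7.36 and 7.12 (-0.24). Ackr2, a scavenger of inflammatory CC chemokines, crossed the floor from 5.25 to 5.05. Cx3cr1 was at 6.35 and 6.18 (-0.17). Cxcr6 differed by -0.032.

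Genes that trim, shed or present chemokines had a median difference of -0.028 over 13 measured of 14, with 2 lower by 2-fold (0.0959% of all measured genes were) and 0 higher (0.59%). The 2 were matrix metalloproteinases that can cleave chemokines, Mmp3 at 8.27 and 6.78 (2.80-fold lower) and Mmp12 at 6.97 and 5.90 (2.10-fold lower). The sheddases Adam10 (-0.069) and Adam17 (0.050), which release Cx3cl1, differed little. The highest were the heparan sulfate carrier Sdc1 (0.20) and Mmp14 (0.13). Dpp4, which clips the N terminus of several chemokines, was below the floor on both arrays.

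Regulators of chemokine mRNA decay had a median of -0.14 over 10 of 10 measured genes. Of these, 9 were below 0 (48.8% of all measured genes were) and 0 past 2-fold in either direction (0.686%). Zfp36l2 (-0.32) and Zc3h12c (-0.28) were lowest, and Zfp36l1 (0.13) and Khsrp (-0.059) highest. Zc3h12a, whose product Regnase-1 degrades inflammatory mRNAs, differed by -0.17.

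Cytokine and receptor inputs had a median of 0.10 over 11 measured of 17 genes. Of the 11, 5 were below 0 (48.8% of all measured genes were) and 6 above, with 0 past 2-fold in either direction (0.686%). Tnf, Il1a, Il1b, Il6 and Ifnb1 were below the floor on both arrays. Il17ra (0.77) and the pattern receptor Tlr2 (0.74) were highest, and Il1rap (-0.42), the shared subunit of interleukin-1 receptors, and Tlr3 (-0.26) lowest.

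Transcription factors that induce chemokine genes had a median of -0.20 over 16 measured of 18 genes. Of the 16, 13 were below 0 (48.8% of all measured genes were) and 0 past 2-fold in either direction (0.686%). Irf7 (-0.65), which drives interferon genes, and Nfkbiz (-0.39), a nuclear NF-κB cofactor, were lowest, and Cebpb (0.70) and Irf3 (0.25) highest. The NF-κB subunit gene Rela was at 10.50 with Ad-DsRed and 10.49 with Ad-caERα.

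**Figure D5:**
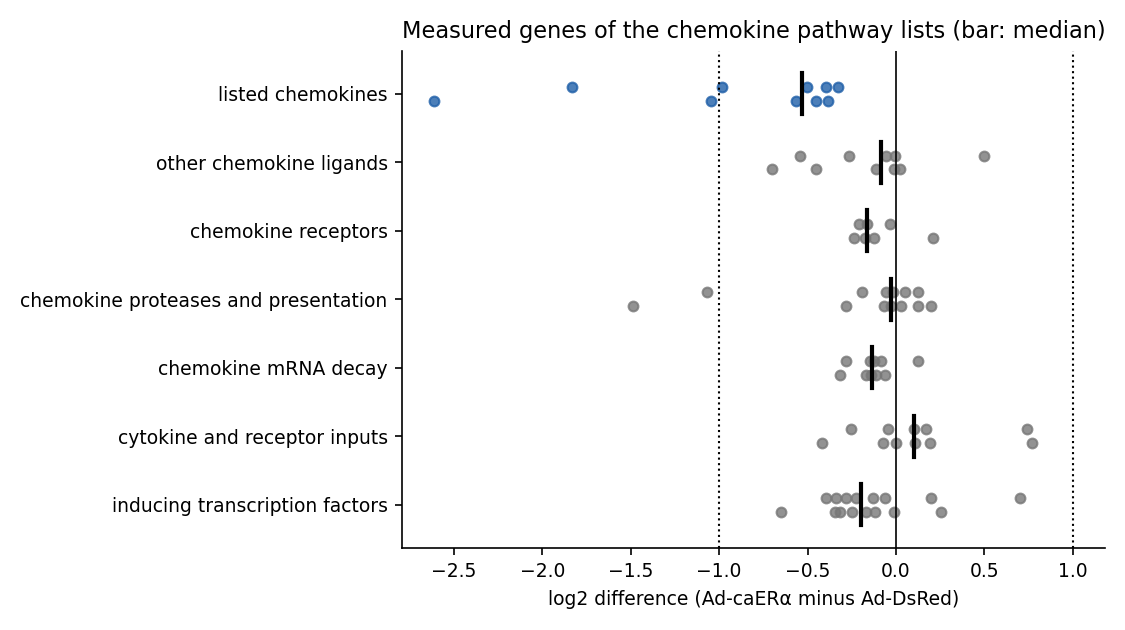
Log2 difference of the measured genes of each list, 1 point per gene, with the median as a black bar and 2-fold as dotted lines. The listed chemokines have a median of -0.53, whereas the medians of the 6 other lists lie between -0.20 and 0.10.

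Markers of muscle and of other cell types were read on the same arrays. All 10 myotube markers, among them Myog, Ckm and Acta1, were above the floor on both arrays. Their median difference was -0.099. Mb, myoglobin, had the largest difference among them, at 10.91 and 11.78 (0.87, 1.82-fold higher), and the 9 others lay between -0.25 and -0.0049. Of 9 leukocyte markers with a probe set, 3 were above the floor, Cd68, Cd14 and Cd3e. The others with a probe set, Ptprc, Csf1r, Adgre1, Lyz2, Itgam and Itgax, were below it on both arrays. Cd68, Cd14 and Cd3e differed by 0.25, 0.29 and -0.033. Of 6 endothelial markers, Tek (-0.13) and Vwf (-0.13) were above the floor on both arrays, while Pecam1, Cdh5, Kdr and Emcn were below it on both. Unfused myoblasts remain in such cultures, and which cells made the chemokines was not tested.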

How the data were processed

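Total RNA of 2 C2C12 cultures, 1 per vector, was labelled from 150 ng and hybridised to Affymetrix arrays, per the labels' protocols. The deposited values are log2 signals for 35556 probe sets, which per the submitters' processing notes were made by the authors with Affymetrix Expression Console and RMA (background correction, quantile normalization and probe summary). Tool versions were not given in the sources used here. This method narrows the differences of dim probe sets, and its quantile step removes any change in total mRNA. The Ad-DsRed column had a median of 6.05 and the Ad-caERα column 6.02. Array precision is limited by their number, 1 per group.

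The platform's annotation named 1 gene for 21789 probe sets, several for 1621 and none for 12146. Identifiers of 21698 matched RefSeq, which changed 0 symbols. For 999 genes with several probe sets the one with the highest mean was used. The detection floor, the difference and the 2-fold rule are as given above. A fold against a signal below the floor is a bound, the brighter signal over the floor. The call code was tested on simulated data, with differences added only to genes well above the floor in Ad-DsRed. Of the listed genes only Ccl2 (4.94 above it) and Ccl7 (4.27) were in that range. The test does not cover genes near the floor. Motifs were searched in the 250 bases before each RefSeq start. Protein sequences were not used here. Alternatives covered the floor, measured rule, normalization, probe sets and fold threshold.

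The named genes were the 10 chemokine genes and, in each list, members past 2-fold and up to 2 at each end of the differences. Receptors of the listed chemokines, other ligands above the floor on both arrays and the 3 genes nearest in difference to each listed gene past 2-fold were added. A few others (Cxcl11, Rela, Zc3h12a, Adam10, Adam17, Dpp4, the undetected cytokines and ligands, and neighbours on the chromosome) were chosen after their values were seen. Members and lists were chosen with earlier results of these data known. Python 3.11.15, numpy 2.4.6, pandas 2.3.3, statsmodels 0.14.6 and matplotlib 3.10.9 were used.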

Additional observations from a re-analysis of the deposited data

How the results depend on the processing

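No paired analysis was possible because there was 1 array per vector, and no replicate could be left out, so the spread between cultures is unknown. The 3 chemokine genes lower by 2-fold became 1, Ccl2, with either higher floor (the 99th percentile over receptor probe sets or the median over all probe sets), with dimmer values set to the floor, and with both arrays required above the floor, the last chosen after seeing the data. The count was 2 without Cxcl10 after lowess correction (-0.97) or a second quantile normalization (-0.99), and 2 without Cxcl5 where the mean of the arrays had to pass the floor. Over the 5 recalculations of differences, every listed gene stayed below 0, from -2.63 to -2.58 for Ccl2 and from -0.99 to -0.95 for Cxcl1. For some of these the sign was fixed in advance. The mean of probe sets could change no listed gene, as each had 1 probe set. Raising values to the floor could reverse no sign, as every listed gene was above it in Ad-DsRed. Median centring shifts every difference by the same amount, here too small to reverse a sign. It took Cxcl12, the smallest as deposited, from -0.33 to -0.30. Raising values to the floor moved Cxcl5 to -0.74, Cxcl10 to -0.63, Cxcl9 to -0.096 and Ccl20 to -0.056, since it removes the part below the floor. Over all measured genes 247 were higher and 120 lower at 1.5-fold, and 27 and 4 at 3-fold, against 80 and 13 at 2-fold. Signals near the floor limit 4 genes to bounds.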
